A study of Homo sapiens with 6 samples.

Results

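The 10 complement genes followed here were the 3 chains of C1q (C1QA, C1QB, C1QC), the components C3, CFP and CFD, the anaphylatoxin receptors C3AR1 and C5AR1, and the membrane regulators CD55 and CD59. They were chosen by name, as a fixed list of complement genes, and all 10 were among the 17042 genes of the count table. The measurements come from THP-1 cells, a line grown from a human monocytic leukaemia, in 3 control libraries and 3 libraries from cells given small interfering RNA (siRNA) against RP11-184M15.1, a long noncoding RNA. The control cells are labelled wild type and the siRNA cells as an RP11-184M15.1 knockdown. The sources used here do not give what the controls were transfected with. In both groups the phorbol ester PMA (100 ng/mL, 24 hours) had first differentiated the cells to macrophages, and interleukin-4 (IL-4, 20 ng/mL) was then added for another 24 hours. The siRNA was delivered by lipid transfection ahead of IL-4. No row of the table carries the name RP11-184M15.1, so its level is not analysed here.

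Complement is a cascade of secreted proteins that marks surfaces for uptake and lysis. C1q binds immune complexes and dying cells and starts the classical pathway, C3 is the protein on which all pathways converge, and the alternative pathway amplifies the deposited C3 with the help of factor D and properdin. Fragments released on the way act on receptors of myeloid cells, and host membranes carry regulators that stop the cascade. The liver makes most of the circulating components, while macrophages are a main source of C1q and myeloid cells of properdin.

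Most of these genes had estimated changes near 0, and 1 of the 10 passed the test. CFP, which encodes properdin, fell by 25.0% in the knockdown libraries. In bulk RNA, fewer cells that express a gene and less RNA per cell cannot be told apart. C1QC, the C chain of C1q, lay 19% lower on average without passing. The other 8, among them C3, both anaphylatoxin receptors and both membrane regulators, had log2 fold changes between -0.09 and 0.10. The threshold was an adjusted p of 0.05 by the quasi-likelihood method of edgeR. It was passed by 2.83% of all 13405 genes tested, with 1.22% higher and 1.61% lower in knockdown, and a single call among 10 genes says nothing about them as a group. The median log2 fold change of the 10 was -0.0015, against -0.0019 over all genes tested, and the median size was 0.08, against 0.09. The knockdown libraries lay wholly on one side of the controls for CFP and C1QC, 2 of the 10, and for 20% of all genes.

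**Figure D1:**
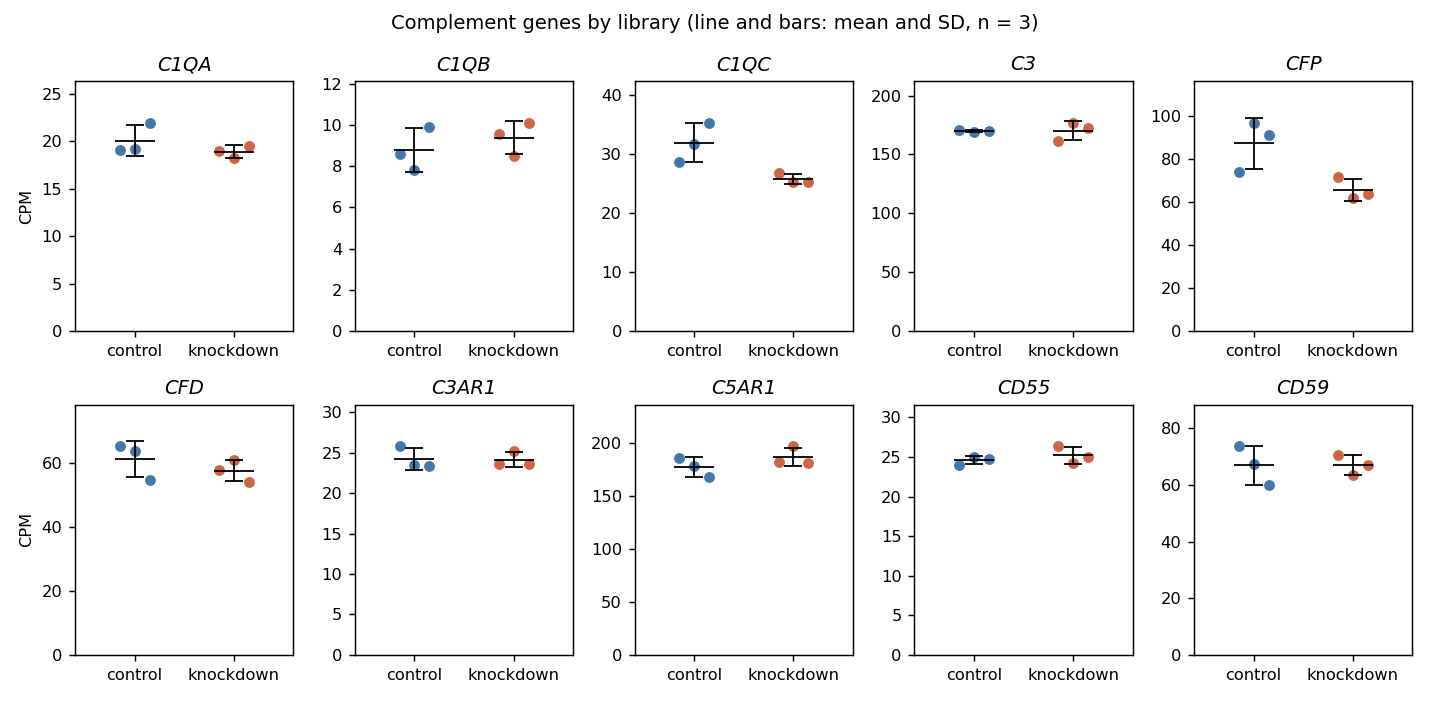
CPM, that is, counts scaled to a common library size (vertical axes from 0), of the 10 complement genes in each of the 3 control and 3 knockdown libraries, with the mean and SD per group. The groups lie apart for C1QC and CFP, both lower in knockdown, and overlap in the other 8 panels.

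The libraries held between 10450043 and 14181343 counts. A floor of 3 counts corresponded to 0.21 to 0.29 CPM, depending on the library. Each of the 10 genes lay far above that floor in every library. Of 12 macrophage markers, 11 were in the table, and their summed level ran from 3900 to 4131 CPM in the controls and from 3975 to 4158 in knockdown. The defining markers CD68 and CSF1R were at 1015 CPM or more in every library, while MRC1, a mannose receptor, averaged 1.76 CPM in the controls. MARCO is not analysed here. That steady sum rests on CD68 and CSF1R. Of the 11 tested, CD14, CD163 and ITGAX were called higher (log2 fold changes of 0.34, 0.40 and 0.23) and LYZ, lysozyme, lower (-0.40). Among all genes tested, 1.22% were called higher and 1.61% lower. The marker calls were named after they were seen. CD14 and LYZ passed with any 1 library left out, and they were the only ones to pass without control replicate 2 or knockdown replicate 2. CD163 also did not pass without knockdown replicate 1, nor ITGAX without knockdown replicate 3. Of 10 lymphoid, epithelial and stromal markers, 6 averaged under 1 CPM or had no row, and most of their sum came from PECAM1, which macrophages also express. Nothing in the labels says that the libraries of a group came from separate cultures, so the p-values reflect only how these libraries varied, in part perhaps for technical reasons.

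C1q is a hexamer of trimers, and each trimer holds 1 A, 1 B and 1 C chain with a collagen-like stalk and a globular head. The 3 genes lie in a row on the plus strand of chromosome 1 (GRCh38): C1QA at 22636506 to 22639608, C1QC at 22643630 to 22648110 and C1QB at 22652762 to 22661538. None overlaps another annotated gene. C1QC measured 28.7, 31.7 and 35.3 CPM in control replicates 1, 2 and 3 and 26.7, 25.3 and 25.3 in knockdown replicates 1, 2 and 3. All knockdown libraries lay below all controls, and the controls spread more widely than the knockdown libraries. The mean went from 31.9 ± 3.30 to 25.8 ± 0.82 CPM (SD, n = 3 each). The log2 fold change was -0.31 ± 0.08 (SE), with a 95% interval from -0.48 to -0.13, and the edgeR adjusted p was 0.0625. The adjusted p ran from 0.0109 to 0.238 over the alternatives, lowest without control replicate 1 (log2 fold change -0.37) and highest without knockdown replicate 2 (-0.29). DESeq2 gave 0.134, and the log2 fold change was -0.23 without control replicate 3.

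C1QA measured 19.1, 19.2 and 21.9 CPM in the controls and 19.0, 18.2 and 19.5 in knockdown. The groups overlapped, with a log2 fold change of -0.09 (95% interval -0.27 to 0.10). C1QB, the least abundant chain, measured 8.60, 7.79 and 9.91 CPM in the controls and 9.56, 8.49 and 10.1 in knockdown. Its groups overlapped too, at a log2 fold change of 0.10 (95% interval -0.17 to 0.37). The interval of C1QB is the widest of the 10, at between 91 and 123 counts per library.

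The chains were also compared within each library, where the depth of the library cancels. Counts were divided by the length of the merged exons, and each chain was expressed as a share of the sum of the 3. C1QC made up 51.4%, 54.3% and 53.0% of the C1q chain level in the controls and 49.0%, 49.1% and 46.6% in knockdown. Its mean share was 4.66 percentage points lower in knockdown (52.9% ± 1.48 against 48.2% ± 1.39, SD, n = 3 each). C1QB made up 12.8%, 11.1% and 12.4% in the controls and 14.6%, 13.7% and 15.5% in knockdown, a mean share 2.50 points higher. The share of C1QA was 2.16 points higher, at 37.1% against 35.0%. No knockdown library overlapped a control in any of the 3 shares, which add up to 100 in each library and so are not separate results. The exact two-sided permutation test gave p = 0.1 for each chain, also after adjustment over the 3, which is the smallest p that 3 against 3 allows. As plain counts, there were 3.34, 4.06 and 3.56 C1QC counts for each C1QB count in the controls, against 2.80, 2.98 and 2.50 in knockdown.

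**Figure D2:**
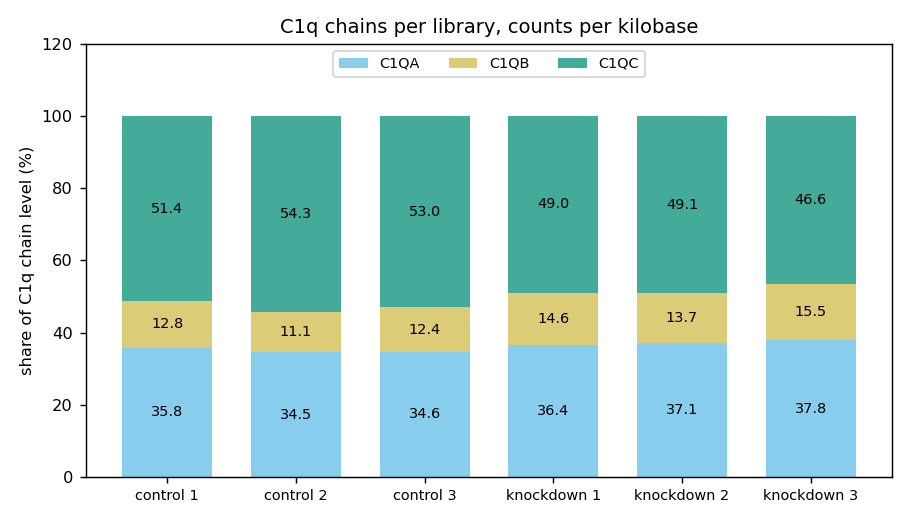
Share of each C1q chain in the summed C1q level per kilobase (percent, stacked to 100) in each library. C1QC takes 51.4% to 54.3% in the 3 control libraries and 46.6% to 49.1% in the 3 knockdown libraries.

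C3 is cleaved into C3a, an anaphylatoxin, and C3b, which binds covalently to targets. Its gene spans 6677704 to 6730562 on the minus strand of chromosome 19. It measured 171, 169 and 170 CPM in the controls and 161, 177 and 172 in knockdown, from 1768 to 2522 counts per library. The control values sat inside the range of the knockdown values. The log2 fold change was 0.0029 ± 0.05 (SE), and its 95% interval ran from -0.10 to 0.10. C3 overlaps GPR108 on the same strand, and Salmon, which the processing notes name, divides reads between genes that share sequence. GPR108 had a log2 fold change of 0.06 and did not pass either.

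CFP encodes properdin, a plasma protein that stabilizes the alternative pathway C3 convertase. The gene lies on the minus strand of chromosome X, 47623172 to 47630305. It measured 74.3, 97.0 and 91.2 CPM in control replicates 1, 2 and 3 and 71.8, 61.9 and 63.6 CPM in knockdown replicates 1, 2 and 3. The groups did not overlap, although control replicate 1 lay close to knockdown replicate 1. Mean levels were 87.5 ± 11.8 and 65.8 ± 5.28 CPM (SD, n = 3 each). The log2 fold change was -0.42 ± 0.08 (SE), with a 95% interval from -0.59 to -0.24 and an edgeR adjusted p of 0.0127. The call depended on single libraries. Leaving out control replicate 2 gave an adjusted p of 0.121 and a log2 fold change of -0.33. Leaving out knockdown replicate 2 gave 0.124 and -0.37, and leaving out knockdown replicate 3 gave 0.0858 and -0.39. Without control replicate 1 it was 8.04e-05 (log2 fold change -0.52). CFP overlaps AL009172.2, a processed transcript on the same strand that is not analysed here.

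Other measures differed between the same libraries. Mitochondrially encoded genes, a sign of RNA quality, took 2.31%, 2.75% and 3.01% of counts in control replicates 1, 2 and 3, and 2.48%, 2.39% and 2.48% in knockdown. Control replicate 1 was thus the lowest control in mitochondrial share, in CFP and in C1QC. Of 13 mitochondrially encoded mRNAs tested, 12 had log2 fold changes below 0 and 1 above (median of the 13 -0.16). MT-ND3 alone was called, lower in knockdown (-0.19, edgeR adjusted p = 0.0240), and was named after the call was seen. Markers of undifferentiated myeloid progenitors, of which 7 of 9 were in the table and 3 of 9 averaged under 1 CPM or had no row, summed to between 87.5 and 95.6 CPM in the controls and between 78.8 and 85.6 in knockdown. Most of that sum came from AZU1, with a mean of 58.9 CPM in the controls and 51.9 in knockdown. All 6 progenitor markers tested had log2 fold changes below 0 (median -0.13), and none passed. Genes of the IL-4 response summed to between 8255 and 8528 CPM in the controls and between 6836 and 7130 in knockdown. Most of that sum came from TGM2 (mean 4754 CPM in the controls and 4206 in knockdown), FABP4 (1637 and 1270) and CCL22 (1029 and 658). Of 11 IL-4 genes tested, 5 passed, all lower, beside 2.83% of all genes tested (1.61% lower). They were CCL17, CCL22, CCL26, TGM2 and FABP4, named after the calls were seen. Another 4 of the 11 had log2 fold changes above 0, none passing. CD209 (0.18) and FCER2 (0.34) lay above the controls in every knockdown library, and 6 of the 11 lay below. Lying apart in this way held for 20% of all genes tested. TGM2 (edgeR adjusted p = 0.0464) was not called with RLE or upper-quartile factors in place of TMM. In DESeq2, CD209 was called higher, and CCL26 and FABP4 were not called. CD209 also passed with the replicate number as a block, and CD209 and FCER2 passed without control replicate 3. CCL17 and CCL22 passed with any 1 library left out, and they were the only ones to pass when control replicate 2, knockdown replicate 1 or knockdown replicate 2 was missing. CCL26 joined them when knockdown replicate 3 was missing. Macrophage markers moved in both directions, as given above. The part of RNA quality, of the differentiation state or of the IL-4 response in the CFP and C1QC values was not tested.

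**Figure D3:**
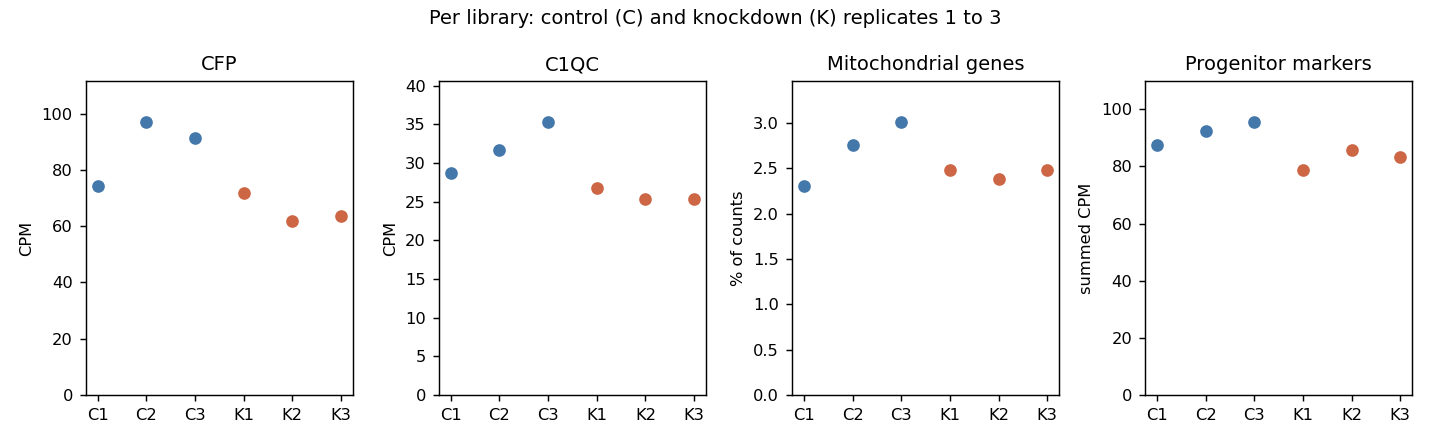
CFP and C1QC (CPM), the share of counts from mitochondrially encoded genes (percent) and the summed level of myeloid progenitor markers (CPM) in control replicates C1 to C3 and knockdown replicates K1 to K3, each axis from 0. Control replicate 1 is the lowest control in all 4 panels, and the progenitor sums of 78.8 to 85.6 CPM in knockdown lie below those of 87.5 to 95.6 in the controls.

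Since CFP was the gene that passed and the cells were held in IL-4, which signals through the transcription factor STAT6, the start of the gene was searched for short words. RefSeq promoter windows on GRCh38.p14, from 250 bases before to 50 after a gene's start, were at hand for 8 of the 10 genes, in 13 windows. The STAT6 palindrome TTCNNNNGAA occurred in 1 of the 13 windows, that of CFP, and in 6.44% of all 35116 windows. GAGGAA, a core of sites for the myeloid factor PU.1, occurred in 2 of 13 (CFP and C5AR1) and in 27.9% of all windows. A longer PU.1 word, GAGGAAGT, occurred in 0 of 13 and in 2.59% of all. TGANTCA, the AP-1 word tied to phorbol esters, occurred in 2 of 13 (CD59 and C3AR1) and in 7.71% of all. Both strands were searched for 10 words in all, and the others are not described. A match is a string of letters and not evidence of binding. CFP has 2 annotated starts, and the window of the inner one, at 47629930, is printed because it holds the STAT6 word and GAGGAA. The window of the outer start, at 47630305, holds neither the STAT6 nor the PU.1 word. The printed window covers chrX:47629881-47630180 on the minus strand, written 5′ to 3′. The capitals mark TTCTATTGAA, whose first base is 177 bases before the start, and TTCCTC, the reverse complement of GAGGAA, which begins 207, 20 and 3 bases before the start.
CFP inner start: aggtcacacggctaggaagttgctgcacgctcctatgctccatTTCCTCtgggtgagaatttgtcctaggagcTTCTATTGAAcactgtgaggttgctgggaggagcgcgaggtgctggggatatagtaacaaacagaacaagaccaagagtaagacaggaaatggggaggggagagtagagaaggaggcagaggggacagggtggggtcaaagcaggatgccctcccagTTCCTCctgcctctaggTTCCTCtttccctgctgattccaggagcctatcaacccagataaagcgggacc

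By pattern over the 6 libraries, the genes closest to CFP among 11908 others were MCM10, TBC1D7, CST7, LMNB1 and TIFAB. Closeness was the Euclidean distance between log2 CPM values centred on their mean, which ran from 0.15 to 0.16 for these 5. TIFAB (log2 fold change -0.37, adjusted p = 0.00185) and LMNB1 (-0.40, adjusted p = 0.00805) passed in edgeR's test. MCM10, TBC1D7 and CST7 did not, at mean levels between 2.10 and 7.76 CPM. The 6 values behind each distance share their libraries, and the likeness is a description only.

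CFD encodes factor D, the serine protease that cleaves factor B in the alternative pathway. The gene lies at 859643 to 863630 on the plus strand of chromosome 19. It measured 65.1, 63.7 and 54.7 CPM in the controls and 57.7, 60.9 and 54.1 in knockdown. The groups overlapped, and the log2 fold change was -0.09 with a 95% interval from -0.24 to 0.06. Both CFD and CFP serve the alternative pathway, and the low end of the CFD interval and the high end of the CFP interval both came to -0.24. The difference between the 2 changes was not tested.

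C3AR1 and C5AR1 are G protein-coupled receptors for the anaphylatoxins C3a and C5a. C3AR1, on chromosome 12 (8058302 to 8066471, minus strand), measured 25.8, 23.5 and 23.4 CPM in the controls and 23.6, 25.2 and 23.6 in knockdown. Its log2 fold change was -0.0038 (95% interval -0.17 to 0.17). C5AR1, on chromosome 19 (47290023 to 47322066, plus strand), measured 186, 178 and 168 CPM in the controls and 182, 197 and 181 in knockdown. The log2 fold change of C5AR1 was 0.07 (95% interval -0.03 to 0.18). The groups overlapped for both receptors. The second C5a receptor, C5AR2, lies next to C5AR1 at 47332147 to 47347327 and was added after its values were seen. It went from 26.3 ± 2.52 to 27.0 ± 0.62 CPM (SD, n = 3 each), a log2 fold change of 0.04 that did not pass.

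CD55 speeds the decay of C3 convertases on host cells, and CD59 blocks assembly of the membrane attack complex. Both proteins are held by a glycolipid anchor. CD55, on chromosome 1 (207321376 to 207386804, plus strand), measured 24.0, 25.0 and 24.7 CPM in the controls and 26.3, 24.2 and 25.0 in knockdown. Its log2 fold change was 0.03 (95% interval -0.13 to 0.20). CD59, on chromosome 11 (33703010 to 33736491, minus strand), measured 73.6, 67.4 and 59.9 CPM in the controls and 70.7, 63.6 and 66.9 in knockdown. For CD59 the log2 fold change was 0.00080 (95% interval -0.15 to 0.15), and the controls enclosed the knockdown values. CD59 overlaps AL049629.2, a protein-coding annotation on the same strand.

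**Figure D4:**
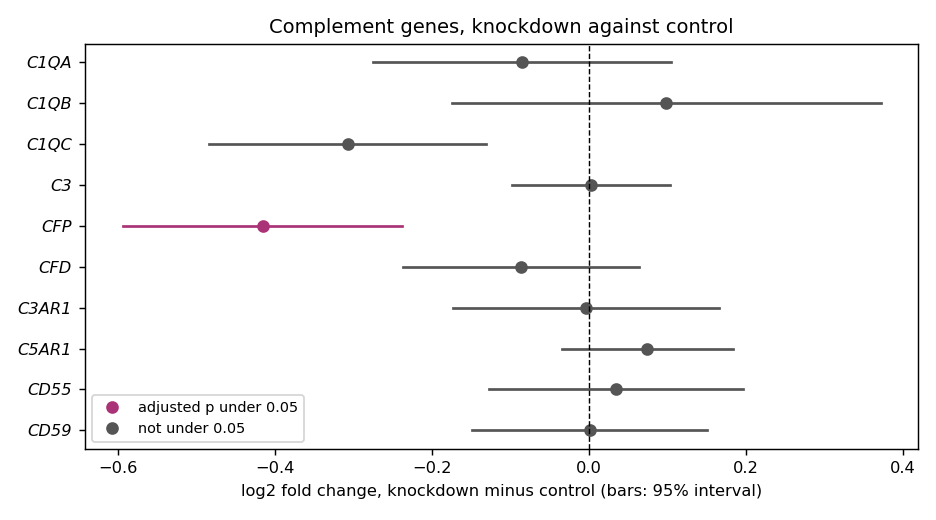
Log2 fold change of each of the 10 complement genes, knockdown minus control (points), with 95% intervals (bars). CFP at -0.42 is the gene past an adjusted p of 0.05, the interval of C1QC (-0.48 to -0.13) also lies below 0, and the other 8 intervals cross 0.

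Set in order by level per length (CPM per kilobase of merged exons, mean over the 6 libraries), C5AR1 stood highest at 61.6 and CFD next at 48.6, with no overlap between them or with the rest. C1QC (21.6) and C3 (20.4) followed and overlapped each other. C1QC stood above C3 in all 3 controls and in knockdown replicate 1, and below it in knockdown replicates 2 and 3. Then came C1QA (15.3), CFP (13.6) and C3AR1 (11.3), of which each overlapped the next. CD59 (6.47) and C1QB (5.67) overlapped, and CD55 was lowest at 4.21. With the longest transcript as the length, C5AR1 and CFD kept the top of this order, while C3 passed C1QC, CFP passed C1QA and CD55 passed C1QB, so the order inside these pairs is not fixed. C1QA and C1QC exceeded C1QB on both scales, at 17.1 and 24.4 against 7.24 CPM per kilobase of the longest transcript.

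Beyond the 10, a list of 53 other complement genes was read from the same fit. Of these, 29 were in the table and 24 were tested. ITGAX alone passed, 1 higher and none lower, beside 2.83% of all genes. The median log2 fold change of the 24 was 0.05, and 9 of them lay wholly apart from the controls, 5 above and 4 below, beside 20% of all genes tested. The median size of the change was 0.16, against 0.09 over all genes, and several of the 24 are scarce. DESeq2's Wald test called 2, ITGAX and ITGB2.

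Among the receptors, ITGAX, the alpha subunit of complement receptor 4, rose from 238 ± 10.2 to 280 ± 11.9 CPM (SD, n = 3 each). The log2 fold change of ITGAX was 0.23 ± 0.05 (SE), with an adjusted p of 0.0146 in edgeR's test. It measured 226, 243 and 245 CPM in the controls and 266, 288 and 285 in knockdown, so the groups did not overlap. That adjusted p was 0.0594 when control replicate 2 was left out, 0.121 when knockdown replicate 2 was, and 0.102 when knockdown replicate 3 was. ITGAM, the alpha subunit of complement receptor 3, was named after its values were seen. It lay at 142 ± 9.12 and 159 ± 4.76 CPM (log2 fold change 0.16, edgeR adjusted p = 0.122; 0.0493 without control replicate 3, and up to 0.360 under the other alternatives). ITGB2, the beta subunit that both share, lay at 3359 ± 14.1 and 3634 ± 114 CPM (log2 fold change 0.11, edgeR adjusted p = 0.178; 0.0468 in DESeq2, and up to 0.488 under the other alternatives). All 3 subunits were above the controls in every knockdown library, as were 1288 of all 13405 genes tested, and 1 of the 3 passed. Since ITGAM was picked after its values were seen, the shared direction is a description only. CALR (0.05) and LRP1 (0.0042), which act together in the uptake of dying cells marked by C1q, did not pass. ITGAX, ITGB2, CALR, LRP1, C2, COLEC12, C1RL and C1QBP each overlap an annotation on the opposite strand, so their counts are less certain if strand was not used.

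CD93, named after its values were seen and once proposed as a C1q receptor, had 122 ± 6.09 CPM in the controls and 108 ± 4.54 in knockdown (SD, n = 3 each). Its log2 fold change was -0.18 (edgeR adjusted p = 0.0922; 0.0155 without control replicate 1, and up to 0.341 under the other alternatives). The initiating components gave 0 calls of 6 tested. C2, the protease subunit of the classical C3 convertase, was the most abundant of them at 241 ± 2.97 and 239 ± 4.75 CPM, a log2 fold change of -0.01 with a 95% interval from -0.10 to 0.08. C2 overlaps CFB and the annotation AL645922.1 on the same strand, and how reads were divided between them was not tested. COLEC12, a membrane collectin, had a log2 fold change of -0.39 (edgeR adjusted p = 0.121) and C1RL, a C1r-like protease, of 0.01. Of the later components, C5 (3.60 CPM in the controls), CFB (2.42) and C8G (1.22) were scarce, and none of these 3 passed.

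Among the regulators none of 6 tested passed. CD46, the membrane cofactor for cleavage of C3b, lay at 180 ± 5.03 and 190 ± 4.15 CPM (SD, n = 3 each), a log2 fold change of 0.08 with a 95% interval from -0.01 to 0.18. SERPING1, the C1 inhibitor, was named after its values were seen. It measured 49.98, 42.3 and 40.0 CPM in the controls and 51.2, 55.6 and 52.4 in knockdown, higher in every knockdown library. Its log2 fold change was 0.27 and its adjusted p 0.0768 in edgeR's test, with a range over the alternatives from 0.00285 (without control replicate 1) to 0.323 (without knockdown replicate 2). THBD, thrombomodulin, had a log2 fold change of -0.16 (edgeR adjusted p = 0.167; 0.0131 without control replicate 1, and up to 0.557 under the other alternatives), and C1QBP, a multifunctional protein that binds C1q heads, of -0.04. Without control replicate 1 the number of these 24 genes that passed was 4: ITGAX and SERPING1 higher, CD93 and THBD lower, while the calls over all genes went from 379 to 542. None of the 24 passed when control replicate 2 was left out (165 of all genes), nor when knockdown replicate 2 (139) or knockdown replicate 3 (156) was.

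**Figure D5:**
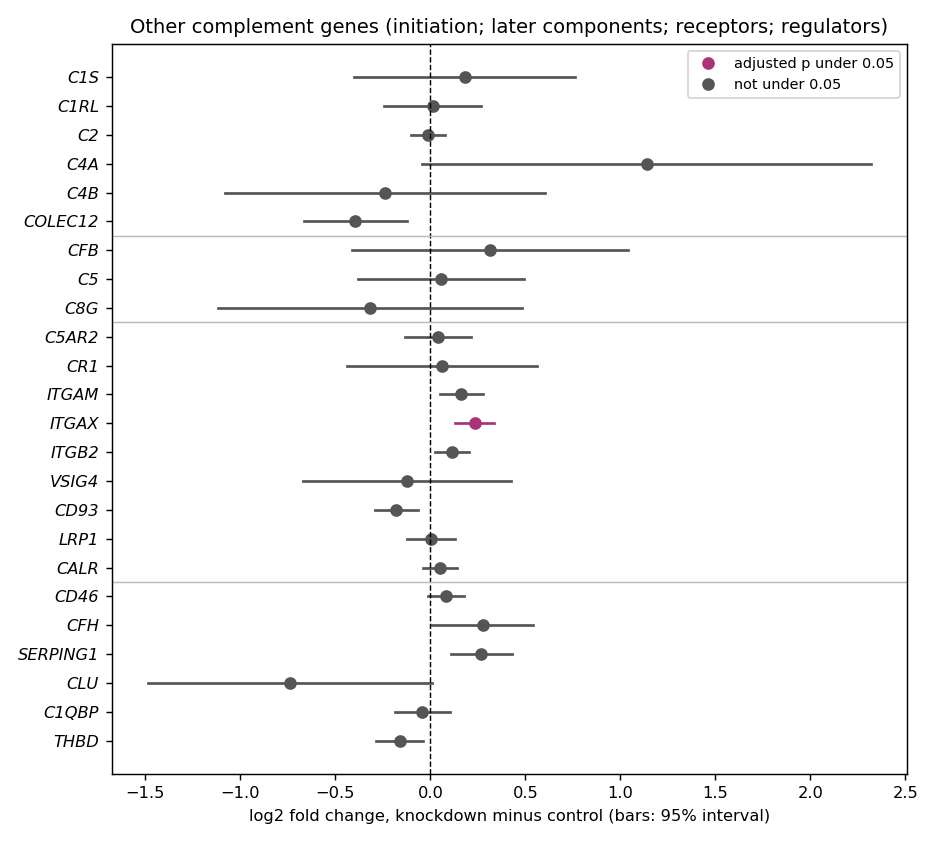
Log2 fold change of the 24 other complement genes tested, knockdown minus control (points), with 95% intervals (bars), in 4 blocks from top to bottom: initiation, later components, receptors and regulators. ITGAX at 0.23 is the one past an adjusted p of 0.05, and the widest intervals belong to scarce genes such as C4A.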

How the data were processed

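Polyadenylated RNA was sequenced from 3 control and 3 knockdown libraries, grouped by their titles. Salmon 0.11.2, DESeq2 and hg38 were used per the submitters' processing notes, with no roles given. The authors deposited expected counts by gene symbol, all whole numbers, with a lowest row sum of 10. The sources used here do not say whether counting used strand. Genes were tested on the counts as deposited with edgeR 4.0.16 quasi-likelihood (R 4.3.3, TMM factors, filterByExpr, no covariate, two-sided, adjusted by Benjamini-Hochberg over 13405 genes, threshold 0.05). The SE is approximate: the size of the log2 fold change over the root of F. CPM uses the TMM factors. Positions and lengths came from GENCODE 29 on GRCh38, promoter windows from RefSeq on GRCh38.p14. Alternatives used limma 3.58.1 and DESeq2 1.42.0, and shares scipy 1.17.1. The scripts were tested on simulated data.

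The genes and lists were chosen with earlier results of these data known. Named beyond the 10 were every other complement gene past the threshold, the 3 most abundant of each of 4 lists, and the 5 genes closest in pattern to the gene with the smallest p. Exceptions are marked in the text. Replicates differed by more than sampling noise (chi-square per degree of freedom between 1.90 and 6.79), so none looked like a resequencing of another library. The measure cannot tell separate cultures from repeated preparations of the same culture.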

Additional observations from a re-analysis of the deposited data

How the results depend on the processing

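Over 13 alternatives (DESeq2, limma-voom, 2 other normalizations, 2 other filters, a replicate block and each library left out), the 10 complement genes gave 130 log2 fold changes. Of these, 118 kept direction and side of the threshold, 3 lost the call (CFP), 1 gained it (C1QC) and 8 changed sign. With 1 library left out the calls ran from 0 to 2 for the 10 genes, from 0 to 4 for the other complement genes and from 139 to 542 over all genes (55 to 214 higher, 84 to 328 lower). At an adjusted p under 0.01 there were 150 calls (56 higher, 94 lower), 0 among the 10 and 0 among the others. DESeq2 called 2 of the others. The shares of the C1q chains kept their direction under both other length settings and with any 1 library left out (C1QC from -5.42 to -3.85 points). Leaving out a library could not change a direction, since no knockdown library overlapped a control in any share. The length settings divide each chain by the same constant in all libraries and use the same counts. Neither is separate support.

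The changes of sign were in genes near 0 or scarce, and the cause was not tested. With 1 library left out, the log2 fold change ran from -0.026 to 0.039 for C3 (below 0 without knockdown replicate 2 or 3) and from -0.037 to 0.043 for C3AR1 (above 0 without control replicate 1 or knockdown replicate 1 or 3). It ran from -0.069 to 0.071 for CD59 (below 0 without control replicate 3 or knockdown replicate 1). The range was -0.045 to 0.27 for C5, -0.089 to 0.61 for CFB, -0.11 to 0.071 for C1RL, -0.069 to 0.046 for LRP1, -0.10 to 0.015 for C1QBP and -0.020 to 0.12 for C5AR2. C3AR1 was at 0.00060 with upper-quartile factors.

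With the replicate number as a block, 488 genes passed (200 higher, 288 lower), 1 of the 10 and 1 of the others. Same-numbered libraries correlated at 0.07, 0.09 and 0.05 in their deviations from the group means, each the best match of its library. Differently numbered libraries correlated between -0.057 and -0.009. Deviations add up to 0 within a group, so values above 0 for some pairs force values below 0 for others. The labels do not say that same-numbered libraries belong together, and the main test took them as unpaired. Depth limits C1QB and the genes under 5 CPM most.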

Other observations

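Scarce complement genes varied by library where another gene shares their sequence or place. CFB, factor B of the alternative pathway, had 36, 37 and 8 counts in control replicates 1, 2 and 3 and 33, 43 and 42 in knockdown. AL645922.1, an annotation that overlaps CFB and C2 on the same strand, had 62, 70 and 106 in the controls and 113, 87 and 111 in knockdown. The sum of CFB and AL645922.1 was 98, 107 and 114 counts in the controls and 146, 130 and 153 in knockdown, so the low CFB value of control replicate 3 is not seen in the sum. These counts are not scaled to library size. Relative to library size, the sum of knockdown replicate 2 lies below that of control replicate 3, so the groups overlap.

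C4A and C4B, near-identical copies of complement C4, also varied widely between libraries, and here the sum varied too. C4A had 6, 5 and 9 counts in the controls and 22, 28 and 3 in knockdown, while C4B had 12, 21 and 29 and then 9, 23 and 30. The sum of both was 18, 26 and 38 counts in the controls and 31, 51 and 33 in knockdown, and the ranges overlap. Levels of the single copies are uncertain in these counts.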
